A study of Mus musculus with 8 samples.

Results

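The genes described here encode membrane proteins that move organic anions, organic cations, bile acids, sterols, lipids and drugs in and out of cells. Array probes were taken as members where the gene name in the scanner files belonged to the Slco, Slc22a, Slc10a or Slc47a carrier families or to the ABC families Abca to Abcg. The bile salt carriers Abcb11 and Slc10a1 were left out. The rule used names and no measured value. It found 89 genes, measured by 155 probes, among 28105 genes or unnamed probes on the array. By family these were 15 Slco, 19 Slc22a, 5 Slc10a and 1 Slc47a genes, and 16 Abca, 9 Abcb, 10 Abcc, 4 Abcd, 1 Abce, 3 Abcf and 6 Abcg genes. One of them, named Slc22a9 in the files, is listed as Slc22a19 in RefSeq. A probe passed the background filter for 73 genes in fetuses, 71 in mothers and 69 in both. For 14 genes none passed in either tissue: Abca4, Abca16, Abca17, Abcb5, Abcc10, Abcc12, Slc10a4, Slc22a3, Slc22a14, Slco1a6, Slco5a1, Slco6b1, Slco6c1 and Slco6d1.

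Liver RNA came from C57BL/6J mice and was labelled from 1000 ng per pool. Pregnant mothers ate freely (control) or received 50% of that amount of food from gestation day 10 to 17 (food restriction, FR). Livers were taken at gestation day 18, from 6 dams of each diet and 2 male fetuses per dam. Each of the 8 two-colour Agilent arrays held an FR pool and a control pool, and each pool pair was hybridised once in each dye orientation: 1 pair of maternal pools of 6 animals, 1 pair of fetal pools of 6 and 2 pairs of fetal pools of 3. The litters behind each fetal pool are not named in the labels. Pools may therefore share litters, and p-values measure the spread between these pools. Descriptions of the arrays carry text on rat tissue that also calls the second array of an exchange Pool 2. The titles and source names were followed here, and they assign both arrays of an exchange to 1 pool pair. Pooled liver RNA cannot tell fewer cells of a type apart from less RNA per cell.

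The liver takes up organic ions from blood through Slco carriers (organic anion transporting polypeptides) and Slc22a carriers (organic cation and anion transporters) at the sinusoidal face of hepatocytes. ABC transporters use ATP to export substrates: Abcb1a, Abcb4, Abcc2, Abcg2 and the Abcg5 and Abcg8 pair work mainly towards bile, Abcc3 and Abcc4 mainly towards blood, and Abca1 and Abcg1 pass cholesterol to lipoproteins. Members of the Abcd family serve peroxisomes and lysosomes, several Abcb proteins sit in mitochondria, and Abce and Abcf proteins act in translation and carry no cargo across membranes. In late gestation the fetal liver is also a site of blood formation, and the placenta carries out much of the exchange that liver carriers perform after birth.

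Probe sequences are shown for the genes on which the results turn, because for 2 of them the probe read decided the value. Each line gives the first 30 of the 60 bases of a probe, 5′ to 3′, with the mm9 position in the array annotation. The first probe of a gene is its brightest, and the second Slco4c1 probe has a wider span than its own length in that annotation.
Abca6, first probe, chr11:110097824-110097883: tccgtgatgactcctcatagtccagtctgg
Abca6, second probe, chr11:110041564-110041623: ctcagagtgaaggatgtttctcaagagcca
Slco4c1, first probe, chr1:98713362-98713421: tgtctgataaataggacagtagagaattgg
Slco4c1, second probe, chr1:98715632-98717766: gctataagtgttacttgtaaagttatcacc
Slco1a1, chr6:141857413-141857472: ccaagttcgagaacgatggagaactgaaaa
Slco1a4, chr6:141754675-141754734: tatctcggtggatatgtgattgcctaatac
Slco1a5, chr6:142183294-142183353: cctgcattcttcattctgatacttatgagg
The Slco1a genes are close relatives, and their probes were set against each other for shared sequence. Among the brightest probes of Slco1a1, Slco1a4, Slco1a5, Slco1a6, Slco1b2 and Slco1c1, the longest run of identical bases was 11, between Slco1a4 and Slco1c1. Over all 155 probes, the longest run shared by probes of different genes was 33 bases, between Slc22a21 and the dimmer probe of Slc22a5. These 2 genes may therefore share signal on those probes, while the values of Slc22a5 given here come from its other probe.

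Promoter windows are printed for 3 neighbouring carrier genes that moved in maternal liver, and for Abcg5, which shares its start region with Abcg8. They are RefSeq windows of 300 bases on GRCm38.p6, from 250 bases before to 50 after a start site, on the strand of the gene. RefSeq windows matched 70 of the 89 members. Capitals mark a run of 20 bases that Slco1a4 and the downstream start of Slco1a5 have in common, the sequence AGGTCA or its complement in Slco1a1, and in Abcg5 the 209 bases that also lie in the window of Abcg8.
Slco1a4, chr6:141856171-141856470, minus strand: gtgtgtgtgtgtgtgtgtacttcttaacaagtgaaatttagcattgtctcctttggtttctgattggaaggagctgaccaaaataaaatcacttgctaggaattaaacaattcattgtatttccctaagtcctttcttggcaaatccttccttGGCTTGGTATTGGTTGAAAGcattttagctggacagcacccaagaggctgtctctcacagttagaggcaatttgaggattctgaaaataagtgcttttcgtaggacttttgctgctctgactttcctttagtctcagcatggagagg
Slco1a5, downstream start, chr6:142278825-142279124, minus strand: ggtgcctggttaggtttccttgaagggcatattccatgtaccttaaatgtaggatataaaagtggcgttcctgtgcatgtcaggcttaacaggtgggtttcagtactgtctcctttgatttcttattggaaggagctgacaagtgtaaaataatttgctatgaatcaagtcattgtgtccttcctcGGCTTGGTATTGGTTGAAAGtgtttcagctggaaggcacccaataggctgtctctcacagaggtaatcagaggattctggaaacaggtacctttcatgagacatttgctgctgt
Slco1a1, chr6:141946913-141947212, minus strand: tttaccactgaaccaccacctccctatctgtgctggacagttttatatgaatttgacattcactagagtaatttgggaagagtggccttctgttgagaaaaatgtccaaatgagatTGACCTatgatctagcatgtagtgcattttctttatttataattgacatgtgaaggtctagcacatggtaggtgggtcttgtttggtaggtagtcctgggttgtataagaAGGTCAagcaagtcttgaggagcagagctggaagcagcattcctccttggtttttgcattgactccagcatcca
Abcg5, chr17:84682962-84683261, minus strand: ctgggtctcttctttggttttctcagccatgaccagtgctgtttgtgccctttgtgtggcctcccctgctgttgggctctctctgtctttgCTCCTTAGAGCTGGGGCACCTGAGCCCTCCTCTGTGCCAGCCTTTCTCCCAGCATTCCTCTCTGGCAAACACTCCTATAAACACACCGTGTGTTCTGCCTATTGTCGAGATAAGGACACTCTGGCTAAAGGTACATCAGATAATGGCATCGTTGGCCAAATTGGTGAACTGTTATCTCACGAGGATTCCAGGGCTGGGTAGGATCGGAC
The shared run lay at bases -97 to -78 of Slco1a4 and -64 to -45 of Slco1a5, counted from the start site at 0, and holds ATTGG, the complement of CCAAT. In the other 20 pairs among the 7 windows of Slco1 genes, the longest shared run was 7 to 14 bases. AGGTCA, the core read by many nuclear receptors, was searched on both strands and stood at -134 to -129 and -24 to -19 in Slco1a1. It occurred in 10 of 81 member windows (12.35%) and in 16.3% of all 32851 windows. The direct repeats DR1 and DR4, a pair of AGGTCA copies with 1 or 4 bases between them, occurred in 0 of the 81 member windows, against 13 and 5 of all windows. TGACNNNGC, the core letters of the antioxidant response element, was in 13.6% of member windows and 12.4% of all, TATAAA in 17.3% and 13.6%, and CCAAT in 33.3% and 37.4%. These matches describe letters only.

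Fetal liver was compared first, to ask which carriers responded to maternal FR before birth. Of 73 members with a probe above background, 16 rose and 11 fell under FR at an adjusted p under 0.05, where 25.6% of all 21095 genes tested passed. By direction, 11.4% of all genes rose and 14.3% fell. The sterol half-transporter gene Abcg5 and the uptake carrier genes Slco4c1, Slco2b1 and Slc22a4 were among those that rose, and the fallen genes were led by Abca8a and its neighbours. At least 1.5-fold changes were seen in 7 of the 27, and in 980 of the 5408 genes that passed over all genes. Of all genes tested, 4.65% both passed and reached that size, beside 7 of the 73 members. All 27 had 1 sign on all 6 fetal arrays, which their selection from these same arrays largely fixed. Each value below is a log2 ratio, FR divided by control, given as mean ± SD over 3 pool pairs, with adjusted p from limma over all genes. The median over the 73 members was 0.025, beside 0.011 over all genes. Without the pools of 6, in the pools of 3 alone, 0 of 74 members and 0 genes in all passed. The direction was the same for 27 of 27, but these pools are 2 of the 3 pairs by which the 27 were chosen. An unadjusted p under 0.05 was reached by 28 members, and by 28.9% of all genes. Without the first pair of pools of 3, 10 members were higher and 5 lower, with 13 of the 27 calls kept. The counts were 5 and 4 with slide as a term, and 2 and 1 in a fit that ignored the pairing of pools, by which 1.88% of all genes passed.

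**Figure D1:**
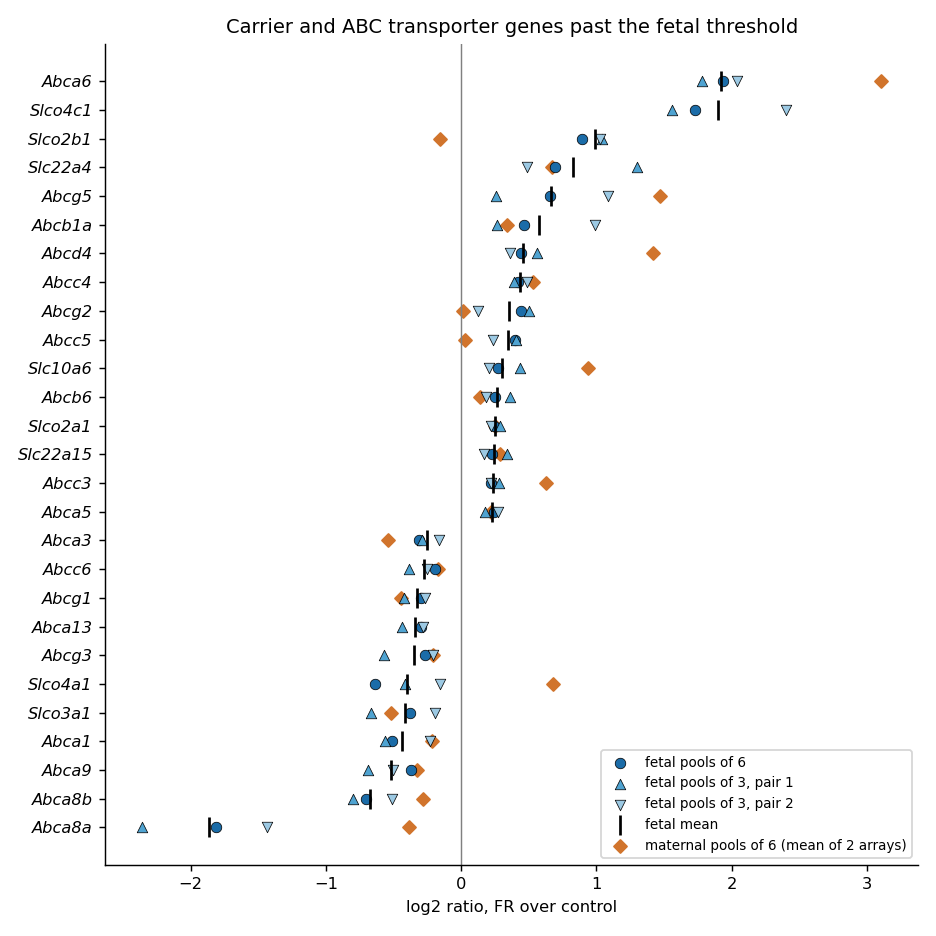
Log2 ratio of FR over control (x axis) for the 27 genes past the fetal threshold (y axis, ordered by fetal mean). Blue symbols are the 3 fetal pool pairs, black ticks their mean, and orange diamonds the mean of the 2 maternal arrays where the gene was measured. Abca6 and Slco4c1 stand above the rest at 1.92 and 1.90, Abca8a stands lowest at -1.87, and the maternal diamond of Slco2b1 lies on the other side of 0 from its fetal symbols.

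Among the Slco carriers, 10 of 15 genes were measured in the fetus, 3 rose and 2 fell. This and each fetal family count below stand beside 11.4% of all genes that rose and 14.3% that fell. Slco4c1, an organic anion carrier best known from the kidney, had ratios of 1.73 in the pools of 6 and 1.56 and 2.41 in the pools of 3. Its FR pools were higher in every pair, and the gene rose by 1.90 ± 0.45, or 3.73-fold (adjusted p = 0.00583). Control levels of its probe, in log2 intensity, were 8.67, 7.98 and 7.92, against FR levels of 10.40, 9.54 and 10.33. Levels of the pools of 6 and of the pools of 3 come from separate slides. Its dimmer probe rose less, by 0.83 in the pools of 6 and 0.46 and 1.18 in the pools of 3. In mothers neither probe passed the filter, so no maternal ratio is given. Kidney tubule markers, listed because Slco4c1 is abundant there, were read beside it, and 0 of 5 measured passed the threshold. The largest mean was 0.23 (Aqp2). Their mean level ranged from 8.05 to 8.17 in control pools and 8.14 to 8.21 in FR pools. In the control fetal pool of 6, Aqp2 read 11.65, while Umod, Cdh16 and Lrp2 were dim at 7.15, 7.56 and 7.65. A change of the dim markers could therefore be missed.

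Slco2b1, a hepatocyte carrier of steroid sulphates and drugs, had fetal ratios of 0.89 in the pools of 6 and 1.04 and 1.03 in the pools of 3. The 3 pairs lay close together, and the mean rise was 0.99 ± 0.082, or 1.98-fold (adjusted p = 0.00453). Control pools read 8.43, 8.33 and 7.89 in log2 intensity, and FR pools 9.32, 9.38 and 8.92. A smaller rise of 0.25 ± 0.031 (adjusted p = 0.0184) was measured for the prostaglandin carrier gene Slco2a1, whose dimmer probe gave 0.019. Slco3a1 fell by 0.41 ± 0.24 (adjusted p = 0.0377) and Slco4a1, a carrier of thyroid hormone, by 0.40 ± 0.24 (adjusted p = 0.04).

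None of the 4 measured Slco1a and Slco1b genes passed in the fetus, where the Slco1a probes were dim. Slco1b2, the most hepatocyte-restricted of these carriers, had ratios of 0.093 in the pools of 6 and -0.99 and 0.95 in the pools of 3. Its 2 pairs of pools of 3 thus lay on opposite sides of 0, and its SD of 0.97 was the largest of all 73 members, whose median SD was 0.095. Slco1a4 averaged 0.089 ± 0.088 (adjusted p = 0.274) and Slco1a5 0.024 ± 0.046 (adjusted p = 0.735). The Slco1a1 probe was well above background in 6 of 6 control channels and 0 of 6 FR channels. It thus passed the fetal filter through control only. Its mean of -0.15 ± 0.12 did not pass (adjusted p = 0.139), and with FR channels near background the size of any fall was not measured. From the deposited log ratios, which carry no added offset, the same gene fell by 1.57 (adjusted p = 0.0293), so the call for Slco1a1 in fetuses differed between the 2 sets of values. Slco1a6 had no probe that passed the filter.

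In the Slc22a family, 16 of 19 genes were measured in the fetus, 2 rose and 0 fell by limma (0 lower also at an unadjusted p under 0.05). Slc22a4, the carrier of the antioxidant ergothioneine, had ratios of 0.69 in the pools of 6 and 1.30 and 0.49 in the pools of 3. The spread between the pools of 3 was wide, but all pairs were above 0, with a mean of 0.83 ± 0.42 (adjusted p = 0.0229). Its neighbour Slc22a5, the main carnitine carrier, did not pass at 0.025 ± 0.0094 (adjusted p = 0.699), nor did Slc22a21, another carnitine carrier, at 0.16 ± 0.15 (adjusted p = 0.163). Slc22a15 rose by 0.25 ± 0.085 on its brightest probe (adjusted p = 0.0298) and averaged -0.098 over its 3 probes, so its direction depended on the probe. The organic anion carrier Slc22a7 averaged 0.037 ± 0.061 (adjusted p = 0.611), on a dim probe with log2 levels of 6.68 in control and 6.72 in FR pools. Slc10a6, a carrier of sulphated steroids, rose by 0.30 ± 0.12 (adjusted p = 0.0248), and the cation exporter Slc47a1 averaged 0.13 ± 0.14 (adjusted p = 0.211).

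Of 13 measured genes of the ABC A family, whose members move lipids, 2 rose and 6 fell in the fetus. Over all genes, 11.4% rose and 14.3% fell. The family median was -0.068. Abca8a fell most, with ratios of -1.81 in the pools of 6 and -2.36 and -1.43 in the pools of 3. Control pools had log2 levels of 12.30, 11.88 and 11.74, and FR pools 10.49, 9.52 and 10.31. The fall was 1.87 ± 0.46, or 3.65-fold (adjusted p = 0.00648). Abca8b fell by 0.67 ± 0.15 (adjusted p = 0.00721) and Abca9 by 0.52 ± 0.16 (adjusted p = 0.0112). Abca1, which loads cholesterol and phospholipid onto apolipoprotein A-I, had ratios of -0.51 in the pools of 6 and -0.56 and -0.23 in the pools of 3 and fell by 0.43 ± 0.18 (adjusted p = 0.0192). Abca13 fell by 0.34 ± 0.083 (adjusted p = 0.0138) and Abca3, known from surfactant-secreting lung cells, by 0.26 ± 0.08 (adjusted p = 0.0253).

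Abca6 stood apart from these neighbours. Its brightest probe had fetal ratios of 1.94 in the pools of 6 and 1.78 and 2.04 in the pools of 3, with log2 levels of 9.56, 9.55 and 9.39 in control pools and 11.50, 11.33 and 11.42 in FR pools. On that probe the gene rose by 1.92 ± 0.13, or 3.78-fold (adjusted p = 0.00282), the largest rise among the 73 members. The second probe, nearly as bright, went the other way, at -0.62 in the pools of 6 and -0.55 and -0.38 in the pools of 3. A value for Abca6 as a whole is therefore uncertain. Abca5 rose by 0.23 ± 0.052 (adjusted p = 0.0258).

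In the B family, 8 genes were measured, 2 rose and 0 fell by limma (1 lower at an unadjusted p under 0.05). Abcb1a, 1 of the 2 mouse genes for the drug exporter P-glycoprotein, rose by 0.57 ± 0.37 (adjusted p = 0.0433), with ratios of 0.47 in the pools of 6 and 0.26 and 0.99 in the pools of 3. Its partner Abcb1b had 0.49 in the pools of 6 and -0.14 and 0.31 in the pools of 3, on both sides of 0, and did not pass (adjusted p = 0.253). A dimmer Abcb1b probe was above 0 in all 3 pairs, at 0.35 in the pools of 6 and 0.37 and 0.50 in the pools of 3. Abcb4, which brings phosphatidylcholine into bile, averaged 0.27 ± 0.22 (adjusted p = 0.0849). Abcb6, a porphyrin-linked transporter, rose by 0.26 ± 0.089 (adjusted p = 0.0259), while the mitochondrial gene Abcb10, tied to heme synthesis, averaged -0.19 ± 0.095 without passing (adjusted p = 0.0619).

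Of 8 measured C family genes, 3 rose and 1 fell. Abcc4, an exporter of cyclic nucleotides and bile acids, had ratios of 0.42 in the pools of 6 and 0.39 and 0.49 in the pools of 3 and rose by 0.43 ± 0.052 (adjusted p = 0.00755). Abcc5, also an exporter of cyclic nucleotides, rose by 0.35 ± 0.095 (adjusted p = 0.0145), and Abcc3, which returns conjugates to blood, by 0.24 ± 0.035 (adjusted p = 0.0211). Abcc4 and Abcc3 each had a dimmer probe nearer 0, at 0.020 and 0.026, and of the 2 dimmer Abcc5 probes 1 gave 0.35 and the other 0.040. Abcc6, needed for ATP release by hepatocytes, fell by 0.28 ± 0.099 (adjusted p = 0.025). The canalicular exporter Abcc2 averaged -0.065 ± 0.092 (adjusted p = 0.42) and Abcc1 0.085 ± 0.092 (adjusted p = 0.298).

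In the D family, Abcd4, which takes part in releasing vitamin B12 from lysosomes, rose by 0.46 ± 0.10 (adjusted p = 0.00952). The peroxisomal fatty acid importers Abcd2 and Abcd3 had -0.16 ± 0.37 and -0.29 ± 0.25 and did not pass (adjusted p = 0.46 and 0.102). Of the translation factors, Abce1, which recycles ribosomes, averaged 0.0093 ± 0.017 (adjusted p = 0.894) and Abcf1, a factor in translation initiation, -0.00065 ± 0.046 (adjusted p = 0.993). Of 6 G family genes, 2 rose and 2 fell. Abcg5, which with Abcg8 exports sterols into bile and gut, had ratios of 0.65 in the pools of 6 and 0.25 and 1.08 in the pools of 3. It rose by 0.66 ± 0.41 (adjusted p = 0.0378). The Abcg8 probe, dim at a control log2 level of 7.23, averaged -0.035 ± 0.034 (adjusted p = 0.594). Abcg2, an exporter of urate, porphyrins and drugs, rose by 0.36 ± 0.21 (adjusted p = 0.0398). The cholesterol exporter Abcg1 fell by 0.33 ± 0.082 (adjusted p = 0.0144) and Abcg3, a rodent relative of Abcg2, by 0.35 ± 0.20 (adjusted p = 0.0389).

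Maternal liver was compared with 1 pool per diet, so it has no replicate and no test. A gene was called where both arrays of the dye exchange differed at least 1.5-fold in 1 direction. Of 71 members measured, 7 were called higher and 2 lower under FR, where 6.88% of all 19505 genes were called, 3.00% higher and 3.88% lower. Uptake carriers divided: Slco1a4 and Slco1a5 were higher, and Slco1a1 and Slc22a7 were lower. The median over the members was 0.0085 and over all genes 0.0034. The 2 arrays had opposite signs for 16 of the 71 members, which were then not called. With non-uniform spots left out, 4 members were called higher and 1 lower.

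Slco1a4 and Slco1a5, carriers of bile acids, conjugated steroids and thyroid hormone, had maternal ratios of 1.56 with the control in Cy3 and 1.32 with the control in Cy5 and, for Slco1a5, 1.45 with the control in Cy3 and 1.45 with the control in Cy5. Their means correspond to 2.72-fold and 2.73-fold higher levels in the FR pool. Slco1a1, which lies between them on the chromosome and carries similar substrates, had -1.29 with the control in Cy3 and -1.30 with the control in Cy5, or a 2.45-fold lower level, and its second probe averaged -1.87. Slco4a1 was higher at 0.62 with the control in Cy3 and 0.75 with the control in Cy5, against its fall in the fetus. Slco1b2 (0.0021 and -0.25 on the 2 arrays, control in Cy3 first), Slco2a1 (0.26 and 0.23) and Slco2b1 (-0.16 and -0.15) were not called.

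Slc22a7, which carries nucleobases, prostaglandins and other organic anions into hepatocytes, had the lowest maternal ratio of all members, -2.13 with the control in Cy3 and -1.36 with the control in Cy5, or 3.36-fold lower. Just outside the 1.5-fold limit of 0.58 lay Slc22a4 (0.52 and 0.82), Abcc2 (0.60 and 0.57) and Abcc3 (0.53 and 0.73), whose mean but not both arrays passed. Just inside was Slco4a1. Slc10a6 was called at 0.88 and 1.00, with 1 of 2 control channels and 2 of 2 FR channels well above background. It thus passed the maternal filter through FR only. Slc22a5 (0.12 and 0.06), Slc47a1 (-0.47 and -0.0096) and the apical bile acid carrier Slc10a2 (0.0046 and -0.21) were not called.

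Among ABC genes, 3 of 41 measured were called higher in mothers and 0 lower, where 3.00% and 3.88% of all genes were. Abca6 had 2.90 with the control in Cy3 and 3.31 with the control in Cy5 on its brightest probe, 8.62-fold higher, and 0.32 on the second. Abcg5 had 1.16 with the control in Cy3 and 1.79 with the control in Cy5, 2.78-fold higher, and Abcd4 1.24 with the control in Cy3 and 1.59 with the control in Cy5, 2.67-fold higher. Abcg8, the obligate partner of Abcg5, averaged 0.24 on its brightest probe, at a low control log2 level of 7.88, and 0.77 on a dimmer one. The P-glycoprotein genes Abcb1a and Abcb1b averaged 0.34 and 0.14, Abcb4 0.033, and Abcc4 0.53. Abca8a, the strongest fall in the fetus, had -0.23 and -0.55 in mothers, and the cholesterol exporters had -0.41 and -0.018 for Abca1 and -0.59 and -0.31 for Abcg1. Of the 9 maternal calls, 5 had also passed in the fetus, and 4 of these in the same direction: Abca6, Abcg5, Abcd4 and Slc10a6. These are 55.6% and 44.4% of the maternal calls, against 58.8% and 54.6% of the 1313 maternal calls over all genes measured in both tissues. The 4 make up 16.0% of the members' 25 fetal calls measured in mothers, against 13.8% over all genes. For Slc10a6, 1 of 2 maternal control channels was well above background.

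The maternal and fetal responses were then set against each other, with the limit that the spread of the maternal pair was not measured. In a limma fit over 4 pool pairs, which assumes that the lone maternal pair varies like the fetal pairs, the fitted response of 6 members was higher in mothers and that of 3 lower of 69 tested, where 4.12% of all 19024 genes passed (2.01% higher, 2.10% lower). Slco1a5 differed by 1.42 ± 0.093 (SE; adjusted p = 0.00936) and Slco1a4 by 1.36 ± 0.11 (SE; adjusted p = 0.0109), each from a fetal value near 0. Slc22a7 differed by -1.78 ± 0.097 (SE; adjusted p = 0.0078) and Slco2b1 by -1.14 ± 0.11 (SE; adjusted p = 0.0146), whose maternal ratios were -0.16 and -0.15. The fitted value for Slco1a1, 1 of the 3 lower, was -1.15, but its fetal probe was well above background in 0 of 6 FR channels, so this is no measured difference. From the deposited log ratios it was 0.16. The fetal Slc22a7 probe was dim too, at mean log2 levels of 6.68 in control and 6.72 in FR pools. Those of Slco1a4 and Slco1a5 read 7.26 and 7.53 in control fetuses. The added offset narrows ratios of dim probes, so a fetal change of these genes could be missed. On its brightest probe Abca6 had a larger rise in mothers, by 1.19 ± 0.13 (SE), and so had Abcd4, by 0.96 ± 0.11 (SE). The second Abca6 probe did not rise in fetuses, where it averaged -0.52. Abcc9, a regulatory subunit of ATP-sensitive potassium channels, and Abcc2 differed by 0.66 ± 0.11 (SE; adjusted p = 0.0434) and 0.65 ± 0.11 (SE; adjusted p = 0.0473). The largest fetal fall, of Abca8a, did not differ past the threshold, at 1.48 ± 0.35 (SE; adjusted p = 0.0918), nor did Abcg5, at 0.81 ± 0.31 (SE; adjusted p = 0.224), or Slco4a1, at 1.08 ± 0.19 (SE; adjusted p = 0.054). Without the pools of 6, 0 members passed, with 17 of 69 at an unadjusted p under 0.05 where 16.8% of all genes were, and a lowest adjusted p of 0.0920.

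**Figure D2:**
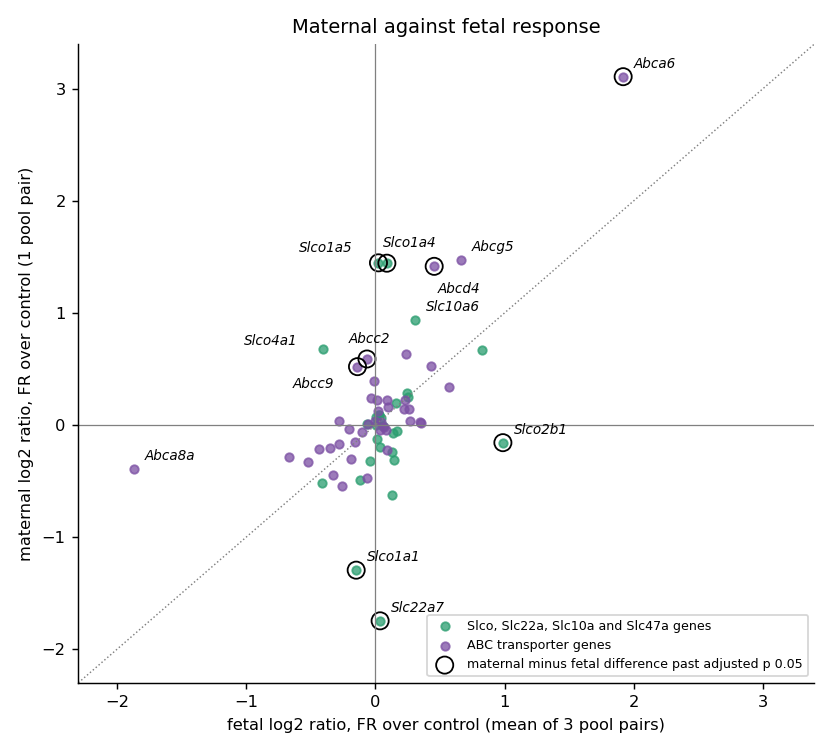
Maternal log2 ratio of FR over control (y axis, 1 pool pair) against the fetal mean of 3 pool pairs (x axis) for 69 members, 1 point per gene. Green points are Slc carriers, purple points ABC genes, circles the 9 genes past the threshold for a difference, and the dotted line equal response. Slco1a4 and Slco1a5 sit far above the line, Slc22a7 and Slco1a1 below, and Slco2b1 to the right with a fetal rise only.

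Control levels were compared on slide 1, to ask how far fetal liver expressed these genes. A gene was called where the control pools of mothers and fetuses, pools of 6 in the same dye, differed at least 4-fold in both dyes. There is 1 control pool per tissue and no test. Of 76 members measured, 8 were higher in mothers and 6 higher in fetuses, where 5.79% of all 22711 genes were called, 2.13% higher in mothers and 3.66% higher in fetuses. On average 43 of the 76 differed less than 2-fold. With non-uniform spots left out, 2 members each way were called.

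Hepatocyte uptake carriers were among the genes higher in mothers. The control mothers read 12.93 for Slc22a7 in log2 intensity, and the control fetuses 6.73, 73.8-fold higher in mothers. Slco2b1 read 13.75 in control mothers and 8.43 in control fetuses (40.2-fold). Slco1a1 and Slco1a4 were 28-fold and 24.3-fold higher in mothers, and Abcg5 14.4-fold. Slc22a18, an imprinted gene, was 6.29-fold higher. The Slc10a2 probe was not well above background in either fetal control channel and was at least 7.1-fold higher in mothers, a bound set by the fetal signal. Slco1b2 and Slc47a1, 4.16-fold and 3.86-fold higher in mothers on average, missed 4-fold in 1 dye each. With its rise, Slco2b1 reached 9.32 in the fetal FR pool of 6.

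Among the genes higher in fetuses, Abcg4, a sterol exporter gene, was 12.9-fold higher in fetuses, with 6.93 in control mothers and 10.63 in control fetuses, and was above background in 1 of 2 maternal control channels. Abcb10 was 6.63-fold, Slc22a4 5.68-fold, Slc22a8, a renal organic anion carrier, 5.33-fold, Abca7 5.31-fold and Slco4a1 4.42-fold higher in fetuses. Slco4c1 differed between the dyes, at -0.26 in Cy3 and -2.14 in Cy5 (mother minus fetus). Abca13 was not well above background in mothers and at least 3.51-fold higher in fetuses. The exporter genes Abcc2, Abcc3 and Abcb4 were 2.01-fold, 2.32-fold and 1.33-fold higher in mothers, and Abcg2 2.64-fold higher in fetuses. Erythroid markers moved with the fetal group: 6 of 6 measured were higher in control fetuses, by a median of -6.68 (mother minus fetus), and Epb42 and Ermap did not pass the background filter in mothers. Markers of other blood lineages were also higher in fetuses by at least 4-fold, where 3.66% of all genes were. They numbered 7 of 7 for granulocytes (median -7.84), 4 of 5 for megakaryocytes (-4.48) and 4 of 6 for the B lineage (-3.20). The part of these cells in the levels of Abcb10, Abcg4, Slc22a4 and Abca7 was not tested.

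**Figure D3:**
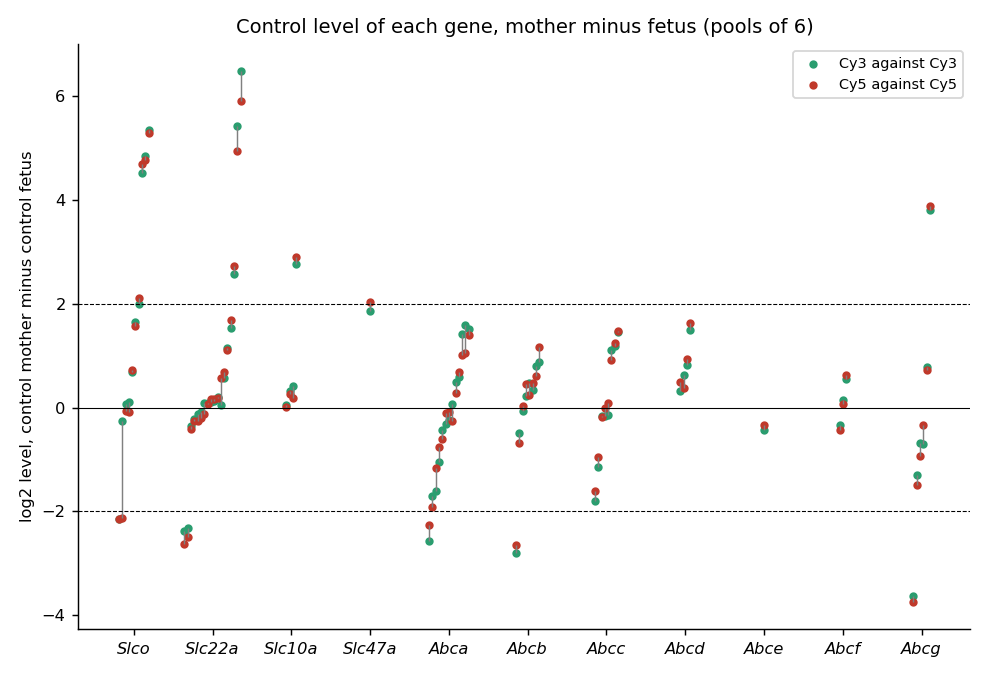
Log2 level in control mothers minus control fetuses (y axis), 1 gene per vertical line, grouped by family (x axis) and ordered within it. Green points compare Cy3 channels and red points Cy5 channels of slide 1, and dashed lines mark 4-fold. Slco and Slc22a genes reach 5.33 and 6.21, while the Abcc, Abcd, Abce and Abcf genes all lie within the lines.

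Many members lie next to relatives on a chromosome. With the brightest probes placed on mm9, 52 of the 89 genes had another member within 1 Mb, in 19 groups. The group with the most members held 6 Slco1 genes and Abcc9 on chromosome 6. Its genes moved separately in mothers. In chromosome order, Slco1c1 averaged 0.068, Slco1b2 -0.12, Slco1a4 1.44, Slco1a1 -1.30, Slco1a5 1.45 and Abcc9 0.52, with Slco1a6 not passing the filter. The lower value of Slco1a1 thus lay between the higher values of Slco1a4 and Slco1a5.

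On chromosome 11, Abca8b, Abca8a, Abca9, Abca6 and Abca5 lie side by side. In fetuses the first 3 fell, by 0.67 ± 0.15, 1.87 ± 0.46 and 0.52 ± 0.16, and the brightest probes of Abca6 and Abca5 rose. Mothers had -0.28, -0.39, -0.33, 3.11 and 0.22, of which the Abca6 probe alone was called. The second Abca6 probe, chr11:110041564-110041623, lies between the probes of Abca9 and the first Abca6 probe and moved downwards in fetuses, as Abca9 did. In mothers it moved slightly upwards, while Abca9 moved downwards. Further groups held the P-glycoprotein genes with Abcb4, where Abcb1a passed in fetuses and the brightest probes of Abcb1b and Abcb4 did not, though a dimmer Abcb1b probe averaged 0.41, and Slc22a5, Slc22a21 and Slc22a4, where Slc22a4 passed alone. Differences between neighbours were not themselves tested.

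**Figure D4:**
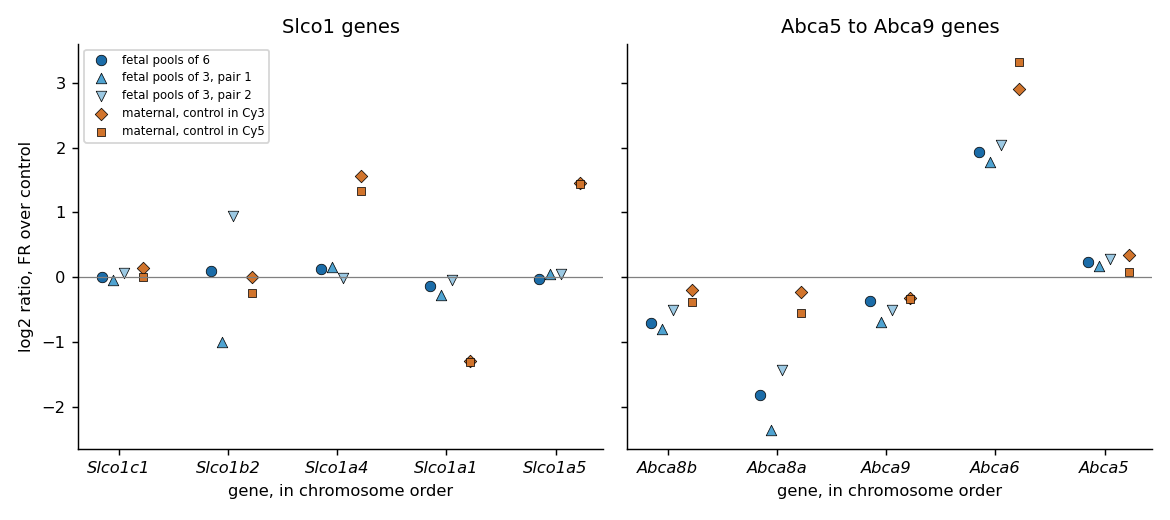
Log2 ratio of FR over control (y axis) for neighbouring genes in chromosome order (x axis), Slco1 genes on the left and Abca5 to Abca9 genes on the right. Blue symbols are the 3 fetal pool pairs and orange symbols the 2 maternal arrays. Maternal Slco1a4 and Slco1a5 are near 1.4, with Slco1a1 near -1.3 between them, and Abca8a is lowest and Abca6 highest in the right panel.

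Abcg5 and Abcg8 start from the shared region printed above, on opposite strands. In mothers their brightest probes averaged 1.47 and 0.24, and in fetuses 0.66 ± 0.41 and -0.035 ± 0.034. The Abcg8 probe was dim, with control log2 levels of 7.88 in mothers and 7.23 in fetuses, against 12.63 and 8.76 for Abcg5. The added offset narrows ratios of dim probes, so these values cannot tell whether the 2 genes responded differently. A dimmer Abcg8 probe, which did not pass the filter in fetuses, gave 0.76 and 0.78 on the 2 maternal arrays.

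Of the 89 members, 48 had more than 1 probe, and for 35 at least 2 probes passed the fetal filter. The fetal means of such probes differed by more than 0.5 for 4 genes: Abca6 by 2.44, Slco4c1 by 1.07, Abcd2 by 0.73 and Slc22a15 by 0.69. The 2 Abca6 probes start 56260 bases apart on mm9 and carry different transcript accessions in the array annotation. For Slco4c1, 2270 bases apart, both probes rose in all 3 pairs. Abcd2 averaged -0.16 on its brightest probe and -0.89 on the other, 28553 bases away, with ratios there of -0.83 in the pools of 6 and -1.52 and -0.31 in the pools of 3. The Slc22a15 probes averaged 0.25, -0.44 and -0.096 over 62830 bases. The Abca6 and Slc22a15 probes differed in sign, and so, by less, did those of Abca5, from -0.058 to 0.23.

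**Figure D5:**
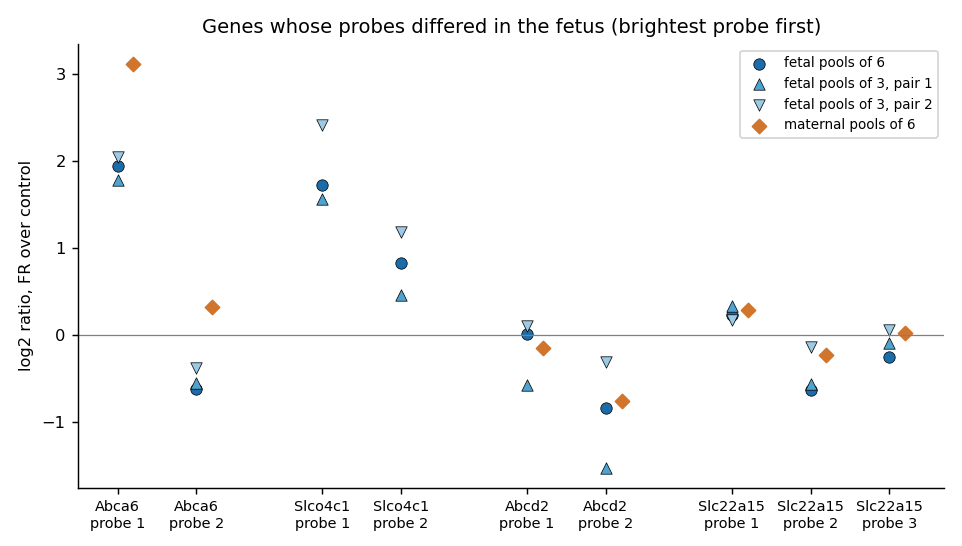
Log2 ratio of FR over control (y axis) for each probe that passed the fetal filter in the 4 genes whose probes differed most (x axis, brightest first). Blue symbols are the 3 fetal pool pairs and orange diamonds the maternal pair where the probe passed there. The 2 Abca6 probes lie on opposite sides of 0 in all 3 fetal pairs.

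Regulators and partners of these transporters were read from a list of 24 genes. In fetuses 6 rose and 5 fell of 24 measured, beside the 25.6% of all genes that passed. Nr1i2, the xenobiotic receptor PXR, rose by 0.71 ± 0.28 (adjusted p = 0.0137), Por, the reductase of cytochromes P450, by 0.57 ± 0.19 (adjusted p = 0.0114), and Slc51b and Slc51a, both subunits of the basolateral bile acid exporter, by 1.29 ± 0.54 (adjusted p = 0.0141) and 0.78 ± 0.43 (adjusted p = 0.0276). The liver X receptor gene Nr1h3, whose product controls Abca1, Abcg1, Abcg5 and Abcg8, was lower at -0.64 ± 0.39 (adjusted p = 0.0369), and the fatty acid receptor gene Ppara at -0.40 ± 0.078 (adjusted p = 0.00999). In mothers 3 of 23 were called higher and 2 lower, with means over both arrays: Por (1.87), Nr1i2 (0.97) and the bile acid receptor gene Nr1h4 (0.96) higher, and the dioxin receptor gene Ahr (-0.92) and Nr1h3 (-0.71) lower. Nr1h3 was thus lower in both tissues, beside a lower Abcg1 and Abca1 and a higher Abcg5 in fetuses. In mothers Abcg5 was called higher, and Abca1 and Abcg1 were not called. Whether Nr1h3 had a part in these values was not tested. Nfe2l2, the antioxidant regulator NRF2, averaged -0.27 ± 0.25 in fetuses (adjusted p = 0.109).

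Markers of liver cell types were read beside the members. In fetuses, 5 of 6 B lineage markers and 6 of 7 granulocyte markers fell, and 0 of either rose. The counts in this paragraph stand beside 11.4% of all genes that rose and 14.3% that fell. The mean level of the B lineage list ranged from 10.6 to 10.7 over control pools and 9.60 to 10.1 over FR pools, and that of the granulocyte list from 14.4 to 14.6 and 13.9 to 14.0. Macrophage and Kupffer markers had 1 risen and 3 fallen of 7, hepatocyte markers 1 and 3 of 6 (mean level 16.0 to 16.1 over control pools and 15.6 to 15.9 over FR pools), erythroid markers 0 of 6, and stellate and bile duct markers 2 fallen of 5 each. Of 4 exocrine pancreas and gut markers measured in fetuses, 1 rose (Cela1) and 1 fell (Vil1). Vpreb3 and Igll1, which define B cell precursors, fell by 1.35 and 0.81. The part of these cell types in the falls of Abca1, Abcg1, Abcg3, Abca13 and Abca8a was not tested.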

How the data were processed

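Per the file headers, the deposited scanner files hold raw intensity of spots and local background in Cy3 and Cy5 with flags of 0 or 1 per spot, written by Agilent Feature Extraction 9.5.3.1 for slide 1 and 11.0.1.1 for slide 2. Of these, the submitters' processing notes list 9.5.3.1. The authors' deposited log10 ratio sets Cy5 over Cy3, is not turned for the dye exchange, and matched log10 of the processed signals within 5e-08. How spots were scaled beyond that is not given in the sources used here.

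The work used R 4.3.3 with limma 3.58.1, jsonlite 2.0.0 and data.table (version 1.17.8). Spot signal (mean on slide 1, median on slide 2) was corrected with normexp (offset 50), normalized by loess within arrays and turned to log2 of FR over control. The offset narrows ratios of dim probes. Control spots and population outliers were left out. Spots marked as non-uniform, 11.8% to 19.7% of Cy3 spots on slide 1, were kept. A probe counted as measured if 1 diet was well above background on all arrays of a comparison, and a gene was read from its brightest such probe. The 2 arrays of an exchange were averaged to 1 replicate, since titles give them the same pools, and their turned ratios correlated at 0.577 to 0.766 over all probes. Median raw signals per array were 69.1 to 284 in Cy3 and 122 to 310 in Cy5, and 8 arrays limit the precision. Levels are control channels after loess and Aquantile. Of 41174 probes, 26918 were named through RefSeq accessions, 5082 by symbol and 817 by an older symbol. Tables and plots were made with Python 3.11.15, pandas 2.3.3, numpy 2.4.6 and matplotlib 3.10.9.

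Fetal ratios were tested against 0 over 3 pool pairs, and maternal against fetal ratios over 4, with lmFit and eBayes and Benjamini-Hochberg adjustment over all genes. Alternatives covered offset, normalization, flags, filters, probes, scaling, fold limits and single pool pairs left out. Genes named in the text were the members past each call, largest first up to 15 each way (8 for the difference, 10 for levels), and a list of well-known transporters. Members and lists were chosen with earlier results of these data known. Gene neighbours, disagreeing probes and genes just outside a limit were picked after their values were seen. Some genes are not reported here.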

Additional observations from a re-analysis of the deposited data

Results flagged for a closer look

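For 9 members the maternal minus fetal log2 ratio passed a limma fit over 4 pool pairs, in which the maternal arm is 1 pair and its spread is borrowed from the fetal pairs. Without the pools of 6, 0 of the 9 passed. The fitted difference was 1.19 for Abca6, 0.65 for Abcc2, 0.66 for Abcc9, 0.96 for Abcd4, 1.36 for Slco1a4 and 1.42 for Slco1a5. It was -1.78 for Slc22a7, -1.15 for Slco1a1 and -1.14 for Slco2b1. For Slco1a1 the fetal probe was well above background in 0 of 6 FR channels, so its value is no measured difference, and the deposited log ratios gave 0.16. The fetal Slc22a7 probe was dim, at 6.68 in control and 6.72 in FR pools, so a fetal change could be missed. Slco1a1, Slco1a4, Slco2b1 and Slc22a7 were also among the genes at least 4-fold higher in control mothers than in control fetuses. The value for Abca6 is that of its brightest probe, and its second probe averaged -0.52 in fetuses.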

How the results depend on the processing

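The study has 3 fetal pool pairs and 1 maternal pair, some probes lie near background, and 1 probe per gene was read. Where an alternative gave a value, the 27 fetal calls kept their direction, except Slc22a15, which was -0.098 as a mean over probes. The alternatives reuse the arrays by which the 27 were chosen, so this is no separate support. With non-uniform spots left out, 7 of the 27 had no value. Fetal counts were 16 higher and 11 lower. They became 7 higher with median centring in place of loess, 7 lower without non-uniform spots, 5 and 4 with slide as a term, and 2 and 1 with no replicate block, a fit that ignores the pairing of pools on an array. Leaving out 1 pool pair gave 0 to 15 higher and 0 to 12 lower, the 0 without the pools of 6, which left pools of 3 on slide 2 alone. Counts with offset 10, no filter on dim probes, both channels above background and the deposited log ratios were within 1.5 times. Maternal counts of 7 and 2 became 4 higher without non-uniform spots, and lower calls numbered 4 with offset 10, 1 with median centring, 1 without non-uniform spots and 6 with the deposited log ratios. The difference counted 6 higher and 3 lower, against 3 higher with median centring, 2 and 0 without non-uniform spots, 10 higher with the deposited log ratios, and 0 to 9 higher and 0 to 4 lower with 1 pair left out. With the deposited log ratios, Slco1a1 reversed to 0.16 in the difference. Level counts of 8 and 6 became 2 and 2 without non-uniform spots, and 19 and 10 with a 2-fold limit. Scaling levels by the 75th percentile moved the median of all genes from -0.032 to 0.17. Fewer genes were tested without non-uniform spots, and the cause of the other shifts was not tested. Median spot signal on both slides, an alternative chosen after seeing the data, kept all 27 fetal calls. Slide 1 alone holds 1 fetal pair and allows no test.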
